A study of Oryctolagus cuniculus with 24 samples.

Results

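PMA-Ionomycin and LPS were set directly against each other in rabbit peripheral blood mononuclear cells (PBMCs) after 4 hours of stimulation (T4). The comparison took 8 of the 24 arrays of the series, chosen by their labels alone: 4 arrays of cells given PMA at 10 ng/mL with Ionomycin at 1 µg/mL, and 4 arrays of cells given LPS at 1 µg/mL. The cells came from the blood of adult females of the New Zealand White breed, and rabbits 1, 2, 4 and 5 each gave PBMCs to both groups, so that each PMA-Ionomycin array has an LPS array of its own animal. All cells were cultured in RPMI medium with fetal bovine serum. The 4 mock-stimulated arrays of the same rabbits at T4 serve below as a reference level, and the 24 hour arrays (T24) as a second time point of the same comparison.

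The stimuli enter the cell by different routes. PMA is a stable stand-in for diacylglycerol that switches on protein kinase C and RasGRP proteins, and Ionomycin carries calcium across membranes, which activates calcineurin and moves NFAT factors to the nucleus. Together they bypass the T cell receptor and act on T cells as well as on other cells. LPS, a component of the outer membrane of Gram-negative bacteria, is recognised by CD14, MD-2 and TLR4, which are carried mainly by monocytes, and it drives NF-kappaB and interferon regulatory factors. PBMCs are a mixture of T cells, B cells, NK cells and monocytes, so a lower level of a transcript may come from fewer cells of a type or from less RNA per cell, and the arrays cannot tell these apart.

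Levels below are log2 median signals of 1-colour Agilent arrays relative to the median of the array, averaged over the probes of a gene. A difference is PMA-Ionomycin minus LPS on the log2 scale, given with its standard error (SE) from a limma model with the rabbit as a block and a p-value adjusted over all 28773 genes tested. A gene passed the test at an adjusted p under 0.05. Of the genes tested, 9552 had a symbol. PBMC markers were present in both groups: 10 of 15 T cell markers, 9 of 12 B cell markers and 12 of 15 monocyte markers were well above background on all 8 arrays, while CD4, THEMIS, BCL11B and TCF7 were not well above background on any PMA-Ionomycin array. TCF7 was well above it on all 4 LPS arrays and CD4 on 2. Spots well above background made up 51.4% to 60.0% of each of the 8 arrays. The lowest shares belonged to the LPS array of rabbit 4, with 51.4%, and the PMA-Ionomycin array of rabbit 2, with 52.6%, against 55.2% to 62.3% for the other 22 arrays of the series.

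The probes that carry the leading differences are shown here, since each value below is the signal of a 60-base sequence. They were read from the scanner files, 5′ to 3′, with positions on oryCun2 as these files give them. Capitals mark the bases that all probes of a gene share, and sequences without capitals belong to genes with a single probe or with probes that share no run of 20 bases. The first 5 report cytokines that were higher after PMA-Ionomycin, and the next 3 report genes that were higher after LPS. CSF2 lies at chr3:15145958-15146017, IL4 at chr3:15711367-15711426 and IL13 at chr3:15691744-15692067, all on the plus strand, the last across a span longer than the probe. IL2 lies at chr15:98312704-98312763 on the minus strand and IL17A at chr12:41696043-41696102 on the plus strand. IL23A lies at chr4:39915840-39915899 and TLR3 at chr2:63540632-63540691, both on the plus strand, and IFIH1 at chr7:101418414-101418473 on the minus strand.
CSF2: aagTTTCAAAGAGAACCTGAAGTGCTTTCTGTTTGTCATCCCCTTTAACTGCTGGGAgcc
IL4: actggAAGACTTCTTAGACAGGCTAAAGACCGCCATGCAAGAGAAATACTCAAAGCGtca
IL13: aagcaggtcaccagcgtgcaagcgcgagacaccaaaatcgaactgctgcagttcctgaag
IL2: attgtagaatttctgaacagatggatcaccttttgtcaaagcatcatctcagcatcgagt
IL17A: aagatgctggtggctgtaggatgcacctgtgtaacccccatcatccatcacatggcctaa
IL23A: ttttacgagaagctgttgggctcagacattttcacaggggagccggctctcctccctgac
TLR3: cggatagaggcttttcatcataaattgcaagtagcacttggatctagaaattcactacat
IFIH1: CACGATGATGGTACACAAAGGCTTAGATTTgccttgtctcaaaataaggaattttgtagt

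The 5 CSF2 probes share 54 of their 60 bases and the 5 IL4 probes share 52, so the probes of each gene are shifted copies of nearly the same stretch and are not independent readings. Their differences ran from 7.22 to 7.35 for CSF2 and from 6.73 to 6.84 for IL4.

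PMA-Ionomycin and LPS gave widely different transcriptomes at T4. Between them 8583 genes passed the test, or 29.8% of those tested. Of these, 5576 genes were higher after PMA-Ionomycin (19.4% of the genes tested) and 3007 were higher after LPS (10.5%). The largest differences also ran mostly towards PMA-Ionomycin: 111 genes were at least 8-fold higher after PMA-Ionomycin and 40 were at least 8-fold higher after LPS. Over all genes the median difference was -0.04. The split by direction changed with normalization and background correction. PMA-Ionomycin was the higher side for 65.0% of the called genes with centring on the array median, but for 50.2% after quantile normalization, 50.5% after normexp correction with quantile normalization, 52.5% in the deposited table and 39.6% with processed signals scaled to the 75th percentile. The median difference of all genes was -0.41 with the processed signals, which differ in both background correction and scaling, and -0.13 in the deposited table.

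Of the 8583 genes, 8256 differed in the same direction in 4 of 4 rabbits. Over all genes tested, called or not, 12203 did, or 42.4%. Within each of the 3 slides, the glass slides that held the arrays, the direction was the same for 8235 of the called genes and for 16650 of all genes tested, or 57.9%. Passing a test blocked by rabbit on the same arrays largely fixes these counts. The comparisons within slides do not keep the pairing by animal. Slide 1 set PMA-Ionomycin in rabbits 2 and 4 against LPS in rabbit 2, and slide 2 rabbit 5 against rabbit 4. Slide 3 set PMA-Ionomycin in rabbit 1 against LPS in rabbits 1 and 5. The PMA-Ionomycin and LPS arrays did not overlap for 6498 of the called genes, against 24.8% of all genes tested. Rabbit 4 showed the widest spread of differences over genes, with an SD of 0.937 against 0.653 to 0.775 in the other 3 rabbits.

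T helper cytokines, by which activated CD4 T cells steer other immune cells, stood highest. Of 11 measured members, 9 were higher after PMA-Ionomycin and 1, LTA, was higher after LPS, with a median difference of 2.17. Only 4 of the 11 were well above background on all 8 arrays, so this median rests partly on signal near background. The 9 include IFNG by the mean of 2 assigned probes that disagree, and whether both measure IFNG was not tested. LTA did not pass without rabbit 1, 2 or 5. CSF2, the granulocyte-macrophage colony-stimulating factor, showed the largest difference of any gene with a symbol. Its levels were 8.74, 7.77, 8.73 and 8.38 after PMA-Ionomycin in rabbits 1, 2, 4 and 5, and 1.38, 0.74, 1.10 and 1.26 after LPS. All 4 PMA-Ionomycin arrays lay far above all LPS arrays, by 7.29 (SE 0.39, adjusted p = 1.72e-11), or 156-fold. The LPS arrays were near the mock mean of 0.53.

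IL13 and IL4, the T helper 2 cytokines that instruct B cells and macrophages, followed. IL13 stood at 6.46, 5.75, 6.87 and 5.87 after PMA-Ionomycin and at -0.90, -0.85, -0.75 and -1.14 after LPS. Since IL13 was not well above background on any LPS array, its measured means of 6.24 and -0.91 give a bound: it was at least 132-fold higher after PMA-Ionomycin (limma, adjusted p = 2.85e-18). For such bounds the dim group was taken at the faintest signal still well above background on its arrays, or at its own signal where that was higher. IL4 differed in that it had a measurable level after LPS, of 1.93, 1.31, 0.89 and 2.25, beside mock arrays at 0.85 to 2.24. After PMA-Ionomycin it was tightly grouped at 8.38, 8.32, 8.27 and 8.52, a difference of 6.78 (SE 0.30, adjusted p = 1.11e-12). IL5, their neighbour in the T helper 2 programme, was well above background on 1 PMA-Ionomycin array and on no LPS array. Its difference of 0.05 (SE 0.11, adjusted p = 0.81) therefore compares signal near background on both sides.

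IL2, the growth factor of T cells, was not well above background on any LPS array and stood at 5.02, 4.26, 4.52 and 4.38 after PMA-Ionomycin. It was at least 39.4-fold higher, with group means of 4.55 and -0.83 (limma, adjusted p = 7.72e-17). IL17A, the signature cytokine of T helper 17 cells, was more uneven across animals. Its PMA-Ionomycin levels were 3.33, 4.66, 4.53 and 2.27, with rabbit 5 lowest, and it was at least 18.6-fold higher against an LPS mean of -0.52 (limma, adjusted p = 8.78e-10). CRTAM, a surface protein of activated T and NK cells, was at least 33.2-fold higher, with means of 4.27 and -0.85 (limma, adjusted p = 5.05e-15). Every one of these 6 genes had an LPS level that did not pass the test against mock, for which 4.27% of all genes passed, while PMA-Ionomycin passed it for all 6, beside 26.0% of all genes. The comparisons with mock share their arrays with the direct comparison and stand beside it only as reference levels.

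**Figure D1:**
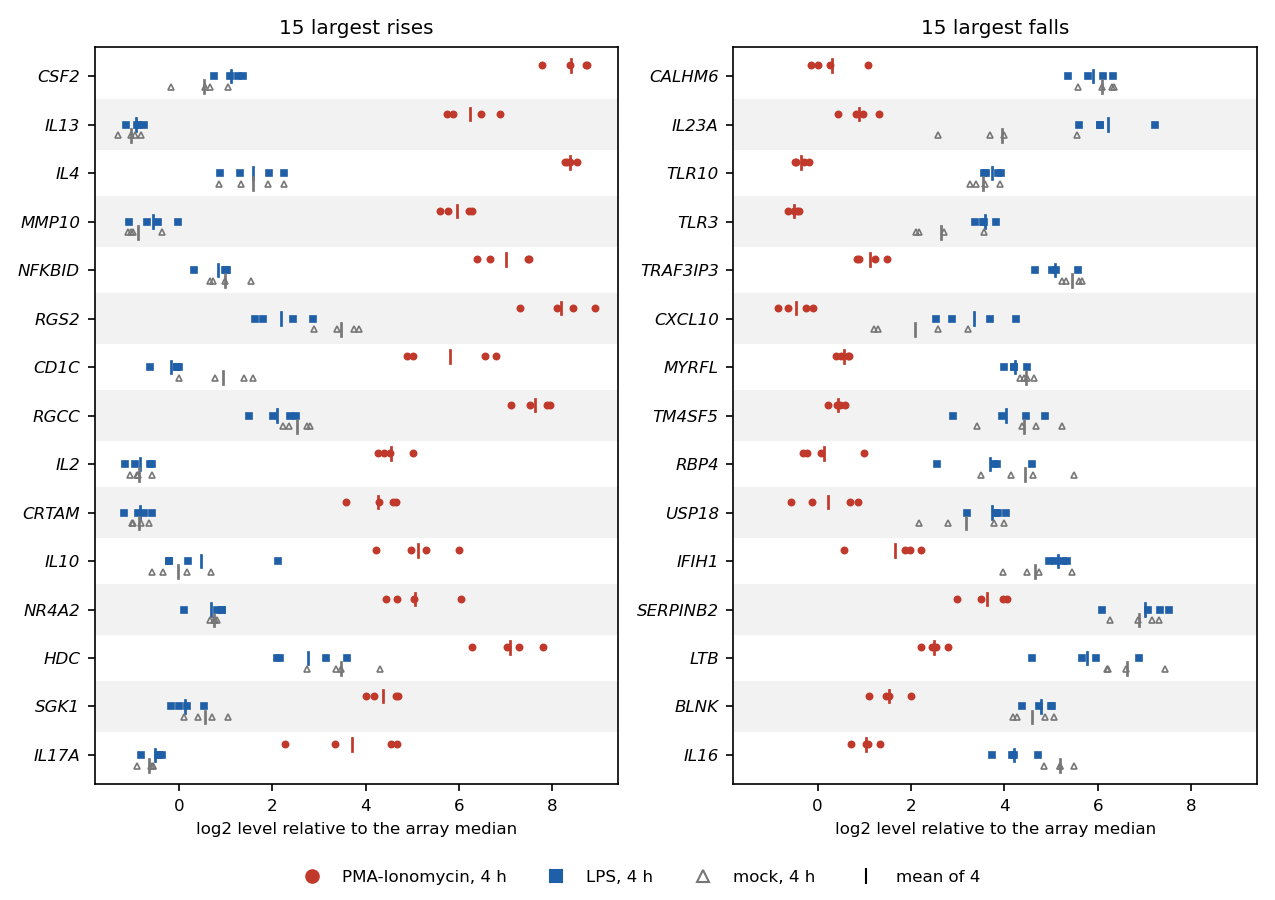
Levels of the 15 genes with the largest rises (left) and the 15 with the largest falls (right) on each array, as log2 signal relative to the array median on the x axis; circles are PMA-Ionomycin, squares LPS and open triangles mock at 4 h, with a bar at the mean of 4 arrays. CSF2 sits at 7.77 to 8.74 after PMA-Ionomycin and at 0.74 to 1.38 after LPS, and CALHM6 at -0.15 to 1.07 after PMA-Ionomycin and at 5.36 to 6.32 after LPS.

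IFNG, the T helper 1 cytokine, had 2 probes assigned to it, and they disagreed. The sequences are printed because they share no run of 20 bases and differ in composition, with 60.0% and 41.7% G and C. The files place the first at chr12:101894325-101894384 on the minus strand and list the second, from the added set of immune gene probes, as unmapped. Capitals in the second mark the bases that match, as reverse complement, the forward IFNG primer of the study's quantitative PCR.
IFNG first probe: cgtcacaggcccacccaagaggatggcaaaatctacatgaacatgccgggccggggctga
IFNG second probe: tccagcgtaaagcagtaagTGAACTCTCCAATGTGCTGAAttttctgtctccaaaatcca

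The first probe was bright in both groups. It read 5.23, 4.90, 5.71 and 5.61 after PMA-Ionomycin and 6.07, 5.98, 6.13 and 5.48 after LPS, and these groups overlapped with a difference of -0.55 (SE 0.21, adjusted p over single probes = 0.0578). The second probe was not well above background on any LPS or mock array and read 2.01, 2.96, 2.94 and 0.62 after PMA-Ionomycin. Its signal was at least 7.51-fold higher after PMA-Ionomycin, with measured means of 2.13 and -0.84 (limma over single probes, adjusted p = 9.37e-08). The mean of both probes, which the gene table uses, differed by 1.21 and mixes a probe that passed the test with one that did not. The second probe holds the site of an IFNG primer and the first matches neither primer on either strand, so the value given for IFNG is that of the second probe. What the first probe measures was not tested.

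Interferon response genes showed the opposite picture. This set contains antiviral effectors, RNA sensors and their regulators that are switched on by type I interferon. Of 24 measured members, 19 were higher after LPS and 1, IRF1, was higher after PMA-Ionomycin, with a median difference of -1.67. The RNA sensor IFIH1 (MDA5) had levels of 1.98, 2.21, 1.88 and 0.56 after PMA-Ionomycin and of 5.08, 5.25, 5.35 and 4.95 after LPS. The groups were far apart, and the difference was -3.50 (SE 0.34, adjusted p = 8.15e-08). RIGI, a related RNA sensor, differed by -3.05 (SE 0.36, adjusted p = 1.15e-06).

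USP18, the protease that removes ISG15 and restrains interferon signalling, stood at 0.87, -0.13, 0.70 and -0.58 after PMA-Ionomycin and at 3.87, 3.20, 4.03 and 3.82 after LPS. Its difference was -3.51 (SE 0.36, adjusted p = 1.54e-07). CXCL10, the interferon-induced chemokine that attracts T cells, was at 3.69, 2.89, 4.24 and 2.54 after LPS and between -0.85 and -0.10 after PMA-Ionomycin, a difference of -3.80 (SE 0.41, adjusted p = 3.20e-07). For CXCL11, a related chemokine outside the list, the difference was -2.55 (SE 0.40, adjusted p = 2.93e-05).

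Set beside mock, the gap of this group lay mostly on the PMA-Ionomycin side. PMA-Ionomycin was below mock for 20 of the 24 members, while LPS was above mock for 0 and below it for 1. IFIH1 had a mock mean of 4.66, between the LPS mean of 5.15 and the PMA-Ionomycin mean of 1.66.

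**Figure D2:**
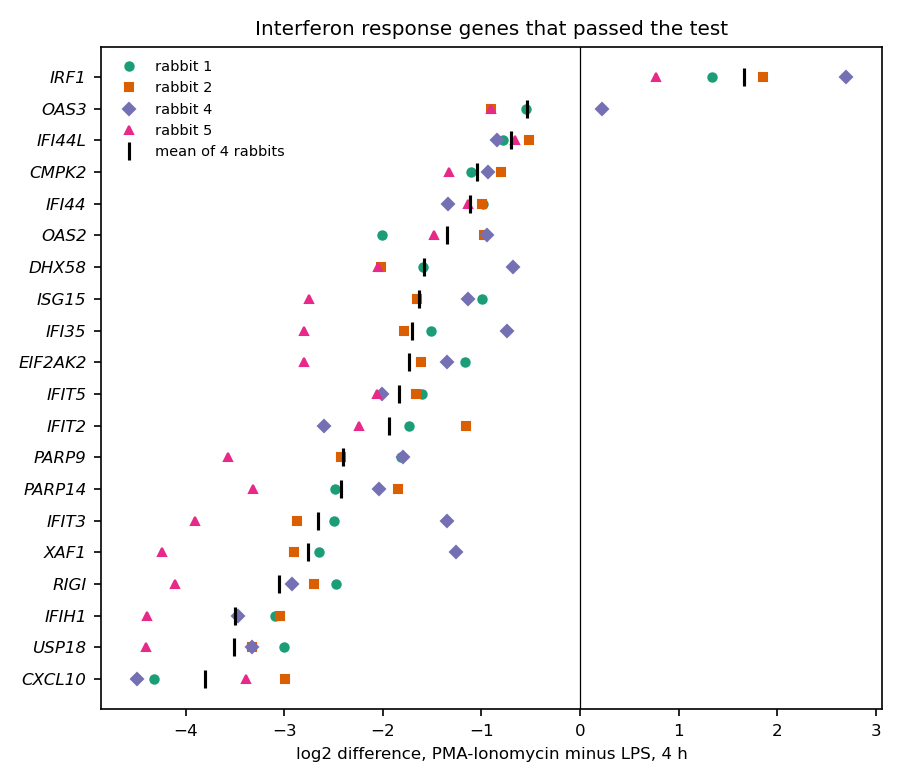
Log2 difference, PMA-Ionomycin minus LPS at 4 h, of the 20 interferon response genes that passed the test, in each rabbit (coloured symbols) and as the mean of 4 rabbits (black bar). The means run from -3.80 for CXCL10 to 1.66 for IRF1, and rabbit 5 has the lowest value for most genes.

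The remaining genes with the largest falls are of mixed function. CALHM6, of a family of calcium homeostasis modulator channels, led them with levels of 0.26, 1.07, 0.00 and -0.15 after PMA-Ionomycin against 6.32, 6.11, 5.36 and 5.79 after LPS. This difference was -5.60 (SE 0.28, adjusted p = 7.72e-12), beside a mock mean of 6.08, from which LPS differed by -0.19 (adjusted p = 0.77). IL23A, the p19 chain of interleukin 23, was different because it moved on both sides of mock. LPS gave 6.04, 7.22, 6.05 and 5.60, mock 3.69, 4.00, 2.57 and 5.55, and PMA-Ionomycin 1.32, 0.81, 0.97 and 0.43. Its difference was -5.34 (SE 0.46, adjusted p = 1.27e-08), and it passed the test against mock in both groups, by 2.27 after LPS (adjusted p = 0.018) and by -3.07 after PMA-Ionomycin (adjusted p = 2.17e-05).

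TRAF3IP3, a TRAF3-binding protein of lymphocytes, MYRFL, TM4SF5 and the retinol carrier RBP4 were 11.8-fold to 15.7-fold higher after LPS, at differences from -3.98 to -3.57. The 3 MYRFL probes gave -4.49, -4.40 and -2.12. SERPINB2, the plasminogen activator inhibitor of monocytes, differed by -3.38 (SE 0.36), LTB, the membrane lymphotoxin of lymphocytes, by -3.27 (SE 0.39) and IL16, a chemoattractant of CD4 T cells, by -3.17 (SE 0.23). IL16 stood at 1.03, 0.72, 1.34 and 1.08 after PMA-Ionomycin and at 4.20, 4.17, 3.74 and 4.72 after LPS. Both were below the mock mean of 5.19, by -4.14 (adjusted p = 3.52e-11) and by -0.98 (adjusted p = 0.024).

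Among these genes some are B cell genes. TLR10, a Toll-like receptor of B cells, was at -0.47, -0.47, -0.18 and -0.30 after PMA-Ionomycin and at 3.61, 3.56, 3.93 and 3.85 after LPS, a difference of -4.09 (SE 0.24, adjusted p = 6.59e-11). BLNK, the linker of the B cell receptor, differed by -3.26 (SE 0.24, adjusted p = 1.46e-09). Over the list of 12 B cell markers, 7 were higher after LPS, CD79B by -2.89 and MS4A1 by -1.69 among them, while BLK was higher after PMA-Ionomycin by 2.23. EBF1 was not well above background on any LPS array and was at least 2.82-fold higher after PMA-Ionomycin, with means of 1.0 and -0.54 (limma, adjusted p = 4.80e-07). Their mean level was 2.87 to 3.51 after LPS and 2.09 to 2.64 after PMA-Ionomycin, without overlap. Of 8 platelet markers 6 were higher after LPS, with a mean level of 1.07 to 1.91 against 0.06 to 0.85. The part of B cells or platelets in any difference between the groups was not tested.

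Among T cell markers, 2 of 15 were higher after PMA-Ionomycin and 1 after LPS, the latter becoming 0 without rabbit 2 or 5, 3 after quantile normalization and 5 with processed signals. Their mean level was 0.23 to 0.58 after PMA-Ionomycin and 0.28 to 0.69 after LPS. Of 15 monocyte markers 4 were higher after PMA-Ionomycin, VCAN by 1.28 among them, and 2 after LPS, CD14 by -1.46 among them. The 4 became 2 without rabbit 2 or 4, without the block, with processed signals and without the LPS array of rabbit 4 and the PMA-Ionomycin array of rabbit 2. Their mean level was 2.13 to 2.42 after PMA-Ionomycin, 2.04 to 2.48 after LPS and 2.52 to 3.41 in mock, and the part of monocytes in any difference was not tested. The 2 NK cell markers and 4 of the 5 neutrophil markers did not pass the test, and of 6 erythrocyte markers 1 was higher after PMA-Ionomycin and 2 after LPS. The erythrocyte count on the LPS side became 1 without rabbit 1, 2 or 5 and 0 without rabbit 4 or the block. The neutrophil count on that side, 1, became 0 without rabbit 2 or 4 or the block, 2 after quantile normalization and 4 with processed signals. The mean level of the neutrophil markers was -0.11 to 0.11 after PMA-Ionomycin and 0.30 to 0.52 after LPS.

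The strongest response shared by a whole group was that of ribosome biogenesis, the nucleolar assembly of ribosomal subunits that growing cells need. All 36 measured members were higher after PMA-Ionomycin, with a median difference of 2.02 and a range from 0.92 to 3.44, and the same count was found under each of the alternative fits other than the 2-fold requirement. RRP12, a factor for the export of ribosomal subunits, stood at 6.44, 5.97, 6.63 and 6.52 after PMA-Ionomycin and at 3.40, 3.28, 2.17 and 2.94 after LPS, a difference of 3.44 (SE 0.20, adjusted p = 4.79e-11). BYSL, needed for the small subunit, differed by 3.22 (SE 0.19), MRTO4, for the large subunit, by 3.15 (SE 0.21), and POLR1C, a subunit of RNA polymerases I and III, by 3.12 (SE 0.23). PMA-Ionomycin was above mock for all 36, and LPS was below mock for 2.

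Chaperones and most glycolysis genes were also higher after PMA-Ionomycin than after LPS. Of 20 heat shock proteins and chaperones 19 were higher after PMA-Ionomycin, with a median of 1.40. The 19 became 14 with processed signals and 15 after quantile normalization. The chaperonin subunits CCT5 and CCT7 differed by 2.67 (SE 0.25) and 2.49 (SE 0.25), and HSPA5 and HSPA8, the main chaperones of the endoplasmic reticulum and the cytosol, by 2.24 (SE 0.31) and 2.16 (SE 0.28). Of 17 glycolysis and transketolase genes 14 were higher after PMA-Ionomycin, with a median of 0.96, and this count fell to 7 without rabbit 4. PGAM1 differed by 2.82 (SE 0.31), PFKP by 2.69 (SE 0.26) and PKM by 1.99 (SE 0.28). Set beside mock, 6 of the 17 were above it after PMA-Ionomycin, and 7 were below it after LPS. The transketolase TKT had means of 5.43 after PMA-Ionomycin, 5.46 in mock and 3.96 after LPS. PKM and PGAM1 were below mock after LPS, by -1.08 (adjusted p = 0.033) and -1.49 (adjusted p = 0.018). For PKM the LPS array of rabbit 4 was the lowest, at 5.73, against 7.53, 7.11 and 6.38 on the other LPS arrays.

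The cytosolic ribosomal protein genes, measured for 10 members, had 4 that were higher after PMA-Ionomycin, with a median of 0.27. Among 34 DNA replication and mitosis genes, 6 were higher after PMA-Ionomycin and 11 after LPS. The 11 became 7 without the block and 14 after quantile normalization or with processed signals. MCM4, of the replicative helicase, and the G1 cyclin CCND3 differed by 1.32 (SE 0.22) and 1.51 (SE 0.18). The mitotic genes NCAPG, a condensin subunit, and NUSAP1, a spindle protein, differed by -1.44 (SE 0.18) and -1.34 (SE 0.13).

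**Figure D3:**
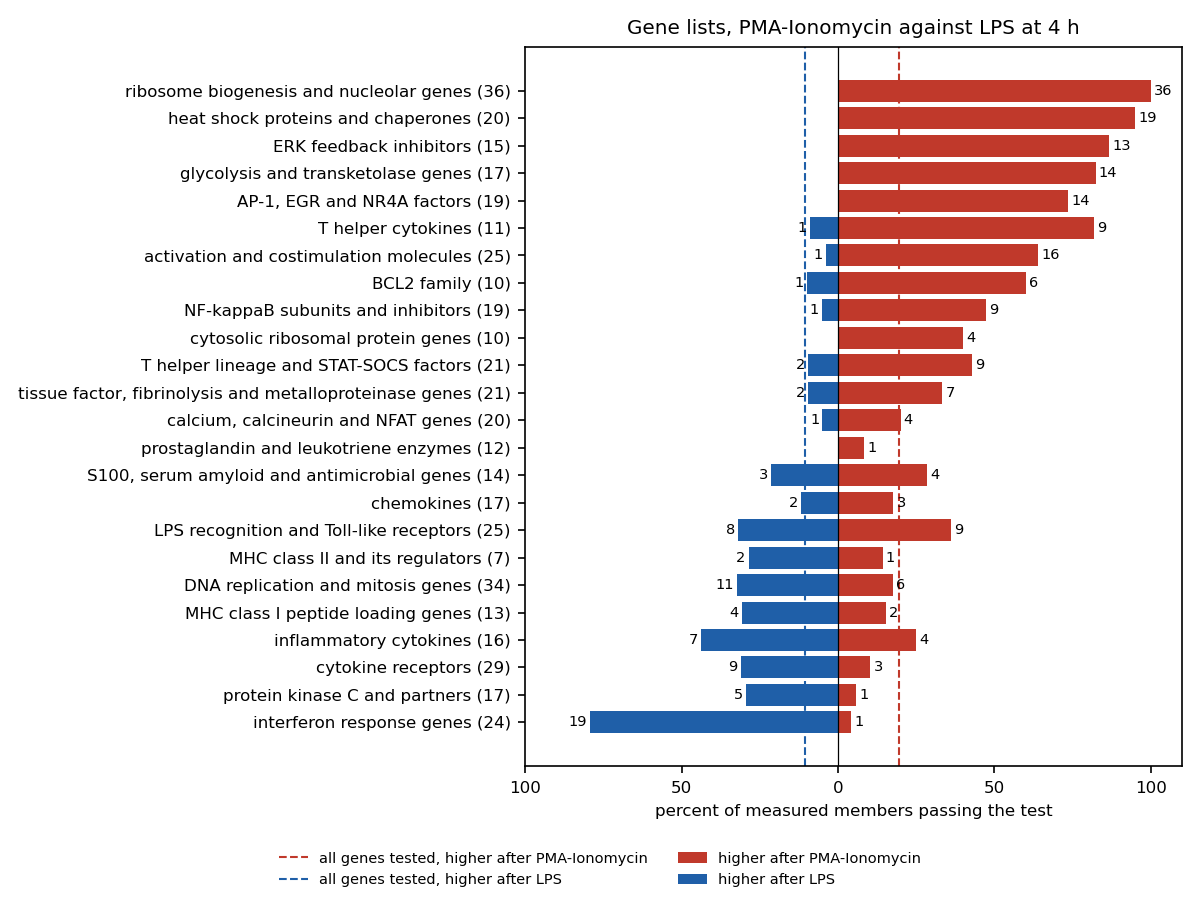
Percent of the measured members of each of 24 gene lists that passed the test and were higher after PMA-Ionomycin (red, to the right) or higher after LPS (blue, to the left), with the number measured in brackets and the number passing at the bar; dashed lines give the shares over all genes tested, 19.4% and 10.5%. All genes tested include 8826 that were well above background on none of the 8 arrays. Of the 9552 genes with a symbol, 2349 passed on the PMA-Ionomycin side and 949 on the LPS side. Of 17459 genes fitted only with probes well above background, 5729 and 3029 did. Ribosome biogenesis reaches 36 of 36 on the PMA-Ionomycin side and interferon response 19 of 24 on the LPS side.

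In the list of AP-1, EGR and NR4A factors, which also holds MYC, KLF6, IER3, NAB1 and NAB2, 14 of 19 members were higher after PMA-Ionomycin, MYC and KLF6 among them, and none was higher after LPS. Factors of these families carry protein kinase C, ERK and calcium signals to the genome. The orphan nuclear receptor NR4A2 stood at 5.04, 4.44, 6.03 and 4.67 after PMA-Ionomycin and at 0.92, 0.92, 0.82 and 0.11 after LPS, a difference of 4.35 (SE 0.22, adjusted p = 8.62e-12). NR4A3 differed by 3.55 (SE 0.18), ATF3 by 3.58 (SE 0.30) and BATF, a partner of IRF4 in T cells, by 3.27 (SE 0.25). EGR1 and FOS, which peak early in most cells, still differed by 2.19 (SE 0.13) and 1.99 (SE 0.15), with the 2 EGR1 probes giving 1.00 and 3.38.

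In the list of ERK feedback inhibitors, which also holds RGS1, RGS2, DUSP10 and PHLDA1, 13 of 15 members were higher after PMA-Ionomycin. RGS2, which damps G protein signals, was at 8.11, 7.29, 8.90 and 8.45 after PMA-Ionomycin and at 2.87, 1.79, 1.63 and 2.45 after LPS, and its difference was 6.0 (SE 0.35, adjusted p = 5.29e-11). LPS was below mock for this gene, by -1.28 (adjusted p = 0.040). SPRY1 was not well above background on any LPS array and was at least 5.80-fold higher, with means of 1.75 and -0.85 (limma, adjusted p = 1.21e-09). The ERK phosphatase DUSP4 and the EGF receptor inhibitor ERRFI1 differed by 2.45 (SE 0.26) and 2.23 (SE 0.28).

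Genes of the kinases and calcium proteins that PMA and Ionomycin act through were looked at next. Of 17 genes of protein kinase C and its partners, 1 was higher after PMA-Ionomycin and 5 were higher after LPS. PRKCD differed by 1.3 (SE 0.27, adjusted p = 0.00073) with overlapping groups, while the kinase C substrate MARCKS, the calcium-dependent exchange factor RASGRP2 and the kinase PRKD2 differed by -1.23 (SE 0.15), -1.47 (SE 0.24) and -1.59 (SE 0.23). Of 20 calcium, calcineurin and NFAT genes, 15 did not pass the test, 4 were higher after PMA-Ionomycin, near the 19.4% of all genes, and 1, RCAN3, was higher after LPS. The last count was 0 without rabbit 1 or 2, 2 without rabbit 5, 4 after quantile normalization and 6 with processed signals. RCAN1, a feedback inhibitor of calcineurin that NFAT induces, was among these 4 with a difference of 0.71 (SE 0.16, adjusted p = 0.0016), and the calcium channel ITPR1 with 0.96 (SE 0.21, adjusted p = 0.0010).

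NF-kappaB genes, a pathway that both stimuli use, were higher after PMA-Ionomycin for 9 of 19 members, higher after LPS for 1, BCL3, and did not pass for 9. No member was higher after LPS without rabbit 1, 2 or 5 or without the block. NFKBID, a nuclear inhibitor of kappa B protein, stood out with levels of 6.67, 6.38, 7.47 and 7.49 after PMA-Ionomycin and 0.98, 1.01, 0.33 and 1.03 after LPS. The difference of 6.16 (SE 0.20, adjusted p = 7.92e-15) was 71.7-fold. NFKB1 differed by 2.0 (SE 0.27), NFKBIB by 1.62 (SE 0.21) and BIRC2 by 1.10 (SE 0.16).

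Activation and costimulation molecules were higher after PMA-Ionomycin for 16 of 25 members and higher after LPS for 1, TNFSF8. SLAMF1, a lymphocyte receptor, differed by 3.47 (SE 0.31), the death ligand FASLG by 3.33 (SE 0.13), the TWEAK receptor TNFRSF12A by 3.12 (SE 0.16) and the inhibitory receptor CTLA4 by 2.53 (SE 0.17). Their groups did not overlap. Among 21 T helper lineage and STAT-SOCS factors 9 were higher after PMA-Ionomycin and 2 after LPS. The 2 became 7 after quantile normalization or with processed signals, 4 without rabbit 4, and 1 without rabbit 1, 2 or 5, without the block or without the LPS array of rabbit 4 and the PMA-Ionomycin array of rabbit 2. ZBTB32, a repressor induced in activated lymphocytes, differed by 4.20 (SE 0.23, adjusted p = 2.68e-11), IRF4 by 2.62 (SE 0.18), STAT5A by 2.19 (SE 0.21) and IRF8 by 1.90 (SE 0.28). Of 10 BCL2 family genes 1, BCL2L15, was higher after LPS by -0.84 (SE 0.18, adjusted p = 0.00070), which became 2 genes without rabbit 4, after quantile normalization or with processed signals. In the same family 6 were higher after PMA-Ionomycin, the survival genes BCL2A1 by 2.82 (SE 0.32) and MCL1 by 1.49 (SE 0.12) among them. BCL2L1 was not well above background on any LPS array and was at least 4.67-fold higher, with means of 1.5 and -0.77 (limma, adjusted p = 4.31e-07).

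Other genes with large rises belong to no single pathway. MMP10, a secreted stromelysin, stood at 6.28, 6.20, 5.59 and 5.75 after PMA-Ionomycin and at -0.03, -0.69, -0.45 and -1.08 after LPS, and differed by 6.52 (SE 0.20, adjusted p = 1.98e-15). It was well above background on 1 of 4 LPS arrays, so the size of this difference rests mostly on signal near background. CD1C, which presents lipid antigens, was at 4.88, 5.02, 6.80 and 6.55 against -0.05, -0.04, -0.62 and 0.00, a difference of 5.99 (SE 0.36, adjusted p = 9.12e-11). RGCC, a regulator of the cell cycle, differed by 5.52 (SE 0.23), HDC, the enzyme that makes histamine, by 4.34 (SE 0.29) and the kinase SGK1 by 4.24 (SE 0.18). All 30 genes with the largest rises and falls had PMA-Ionomycin and LPS arrays that did not overlap, and kept their direction within each of the 3 slides, where the smallest difference was 2.15 in size, which their choice by size and direction largely fixes.

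Inflammatory cytokines split between the stimuli: of 16 members 4 were higher after PMA-Ionomycin, 7 were higher after LPS and 5 did not pass. IL10, the regulatory cytokine, had levels of 4.98, 4.21, 5.99 and 5.28 after PMA-Ionomycin and 2.13, 0.19, -0.22 and -0.22 after LPS. It differed by 4.65 (SE 0.62, adjusted p = 4.74e-06), with the LPS array of rabbit 1 above the other 3. CSF1, the macrophage growth factor, differed by 2.84 (SE 0.18) and was well above background on 1 of 4 LPS arrays. CSF3, the granulocyte growth factor, stood at 2.76, 3.38, 1.59 and 1.94 after LPS and between -0.51 and -0.22 after PMA-Ionomycin, a difference of -2.72 (SE 0.36, adjusted p = 4.39e-06).

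TNF was high everywhere, at 9.92, 9.93, 9.15 and 8.18 after PMA-Ionomycin and at 10.61, 11.61, 10.43 and 9.32 after LPS. Each rabbit was higher after LPS, yet the groups overlapped, and the difference of -1.20 (SE 0.41, adjusted p = 0.030) missed the threshold without rabbit 1 (adjusted p = 0.053), without rabbit 2 (adjusted p = 0.16) and without the block (adjusted p = 0.19). IL12A, the p35 chain of interleukin 12, differed by -1.02 (SE 0.25, adjusted p = 0.0027). Without the LPS array of rabbit 4 and the PMA-Ionomycin array of rabbit 2 it differed by -0.70 (adjusted p = 0.070), and TNF by -1.04 (adjusted p = 0.15).

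IL6, IL1B and CXCL8 showed overlapping groups. IL6 was at 8.18, 8.16, 7.44 and 7.45 after PMA-Ionomycin and at 8.09, 8.91, 8.15 and 6.61 after LPS, a difference of -0.13 (SE 0.53, adjusted p = 0.90). Both were above the mock mean of 5.39, by 2.42 (adjusted p = 0.0013) and 2.55 (adjusted p = 0.018). IL1B differed by -0.47 (SE 0.74, adjusted p = 0.72) and CXCL8, the neutrophil chemoattractant, by -0.14 (SE 0.61, adjusted p = 0.90). PTGS2, the inducible cyclooxygenase, was near them with 0.82 (SE 0.37, adjusted p = 0.11). Among 17 chemokines 3 were higher after PMA-Ionomycin and 2 after LPS, near the 19.4% and 10.5% of all genes tested. CCL2, which attracts monocytes, differed by 3.41 (SE 0.55, adjusted p = 4.31e-05), with rabbit 5 highest in both groups, at 6.50 and 3.25. CCL20 was not well above background on any LPS array and was at least 3.66-fold higher after PMA-Ionomycin, with means of 1.21 and -0.68 (limma, adjusted p = 2.54e-08).

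**Figure D4:**
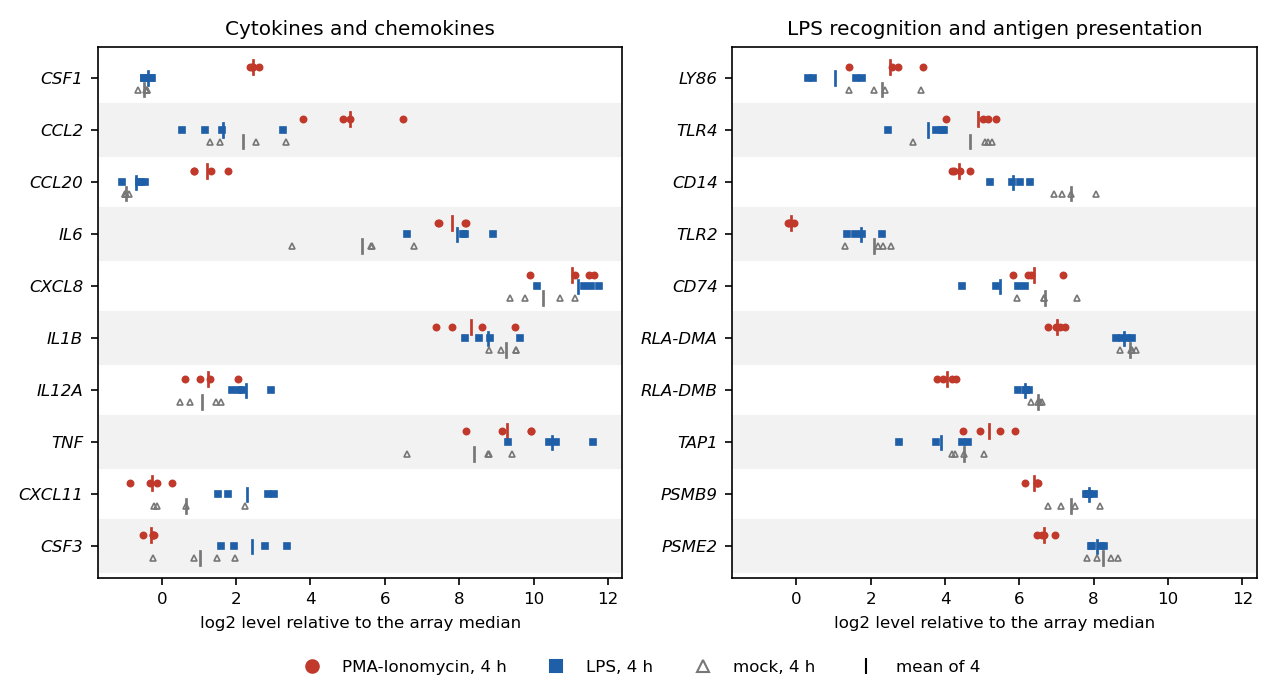
Levels of inflammatory cytokines and chemokines (left) and of genes of LPS recognition and antigen presentation (right) on each array, as log2 signal relative to the array median on the x axis, with symbols and mean bars as for the genes with the largest differences. IL6 and CXCL8 overlap between PMA-Ionomycin (circles) and LPS (squares), CSF3 sits at 1.59 to 3.38 after LPS and below 0 after PMA-Ionomycin, and CD14 is highest in mock (triangles).

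The receptors that detect microbial products did not move together. Of 25 genes of LPS recognition and Toll-like receptors 9 were higher after PMA-Ionomycin and 8 after LPS. The 9 became 4 without rabbit 4, and 5 without rabbit 5, after quantile normalization or with processed signals. TLR3, the endosomal receptor for double-stranded RNA, was at -0.63, -0.50, -0.41 and -0.45 after PMA-Ionomycin and at 3.81, 3.37, 3.54 and 3.57 after LPS, a difference of -4.07 (SE 0.35, adjusted p = 1.21e-08). CD14, the LPS co-receptor and a monocyte marker, was at 4.18, 4.24, 4.67 and 4.41 after PMA-Ionomycin and at 6.29, 5.22, 6.01 and 5.81 after LPS, a difference of -1.46 (SE 0.26, adjusted p = 0.000125). Both groups were below the mock mean of 7.38.

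TLR4 ran the other way, at 5.03, 5.36, 5.15 and 4.03 after PMA-Ionomycin and 3.91, 3.77, 3.97 and 2.47 after LPS, a difference of 1.36 (SE 0.20, adjusted p = 1.93e-05). The PMA-Ionomycin level was near mock, at 0.23 above it (adjusted p = 0.53), and LPS was below mock by -1.13 (adjusted p = 0.014). LY86, the partner of CD180, differed by 1.49 (SE 0.33, adjusted p = 0.0011) with overlapping groups. TLR2 differed by -1.90 (SE 0.17, adjusted p = 2.12e-08), as the mean of 3 probes that ranged from -2.98 to -0.08.

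Antigen presentation genes were mixed as well. Of 7 genes of MHC class II, its invariant chain and its regulators, 1 was higher after PMA-Ionomycin and 2 were higher after LPS. The former was HLA-DOA, a modulator of peptide exchange, by 1.33 (SE 0.45, adjusted p = 0.030), and its side held 0 members after quantile normalization, with processed signals, without rabbit 2 or 4, without the block and without the LPS array of rabbit 4 and the PMA-Ionomycin array of rabbit 2, and 2 without rabbit 5. The latter, a count that was 4 with processed signals, were the peptide exchange factors RLA-DMA by -1.80 (SE 0.23, adjusted p = 3.43e-06) and RLA-DMB by -2.10 (SE 0.16, adjusted p = 3.48e-09). The invariant chain CD74 differed by 0.90 (SE 0.37, adjusted p = 0.072), with overlapping groups. RLA-DMA and RLA-DMB differed in the direction of the mean B cell marker level given above, and HLA-DOA in the other. Of 13 genes of MHC class I peptide loading 4 were higher after LPS and 2 were higher after PMA-Ionomycin. The 4 became 2 without rabbit 1 or 2 and 7 with processed signals, and the 2 became 1 without rabbit 4 or after quantile normalization. The proteasome genes PSMB9 and PSME2 differed by -1.48 (SE 0.31, adjusted p = 0.00068) and -1.41 (SE 0.26, adjusted p = 0.00024), and the peptide transporter TAP1 by 1.3 (SE 0.37, adjusted p = 0.010). TAP1 did not pass without rabbit 4, at 0.69 (adjusted p = 0.20), after quantile normalization, at 0.93 (adjusted p = 0.059), or with normexp correction, at 0.91 (adjusted p = 0.063).

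Cytokine receptors had 9 of 29 members higher after LPS against 3 higher after PMA-Ionomycin. The 9 became 6 without rabbit 2 and 12 with processed signals, and the 3 became 1 without rabbit 4. The receptor chain IL6ST (gp130) differed by 2.74 (SE 0.21, adjusted p = 2.11e-09) and IL18R1 by -1.22 (SE 0.26, adjusted p = 0.00090). Of 21 genes of tissue factor, fibrinolysis and metalloproteinases 7 were higher after PMA-Ionomycin, including TFPI, the inhibitor of the tissue factor pathway, by 2.72 (SE 0.30) and the urokinase PLAU by 2.71 (SE 0.40), and 2 were higher after LPS, which became 4 with processed signals and 1 without rabbit 2, without the block or without the LPS array of rabbit 4 and the PMA-Ionomycin array of rabbit 2. Of 14 S100, serum amyloid and antimicrobial genes 4 were higher after PMA-Ionomycin and 3 after LPS. The 4 became 2 without rabbit 4, after quantile normalization or with processed signals, and the 3 became 1 without rabbit 2, 5 after quantile normalization and 6 with processed signals. The acute phase gene SAA3 differed by -1.46 (SE 0.27, adjusted p = 0.00018), with rabbit 4 at 5.92 after LPS against 4.15 to 4.32 in the others, and S100A8, a calcium-binding protein of myeloid cells, by -1.36 (SE 0.56, adjusted p = 0.076). Of 12 prostaglandin and leukotriene genes 1 was higher after PMA-Ionomycin and none after LPS. The 1 became 0 without rabbit 1, 2 or 4 or the block, and 2 after quantile normalization or with processed signals. With processed signals 2 were higher after LPS.

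Whether the direct difference was the same at T24 was tested as an interaction, the difference at T24 minus that at T4, which passed for 36.0% of all genes tested. Of the 30 genes with the largest rises and falls at T4, which that choice makes likely to be less extreme at another time, 26 passed it and 24 had a smaller difference at T24. IL13 went from 7.15 to 2.0, NFKBID from 6.16 to 0.73 and CSF2 from 7.29 to 4.51. The difference in RGCC was 5.52 at T4 and 5.85 at T24 (interaction 0.33, adjusted p = 0.49), and that in IL23A was -5.34 and -6.71 (interaction -1.37, adjusted p = 0.11). IL10 changed sides, from 4.65 at T4 to -2.18 at T24 (adjusted p = 0.0067). TLR10 went from -4.09 to 0.73.

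**Figure D5:**
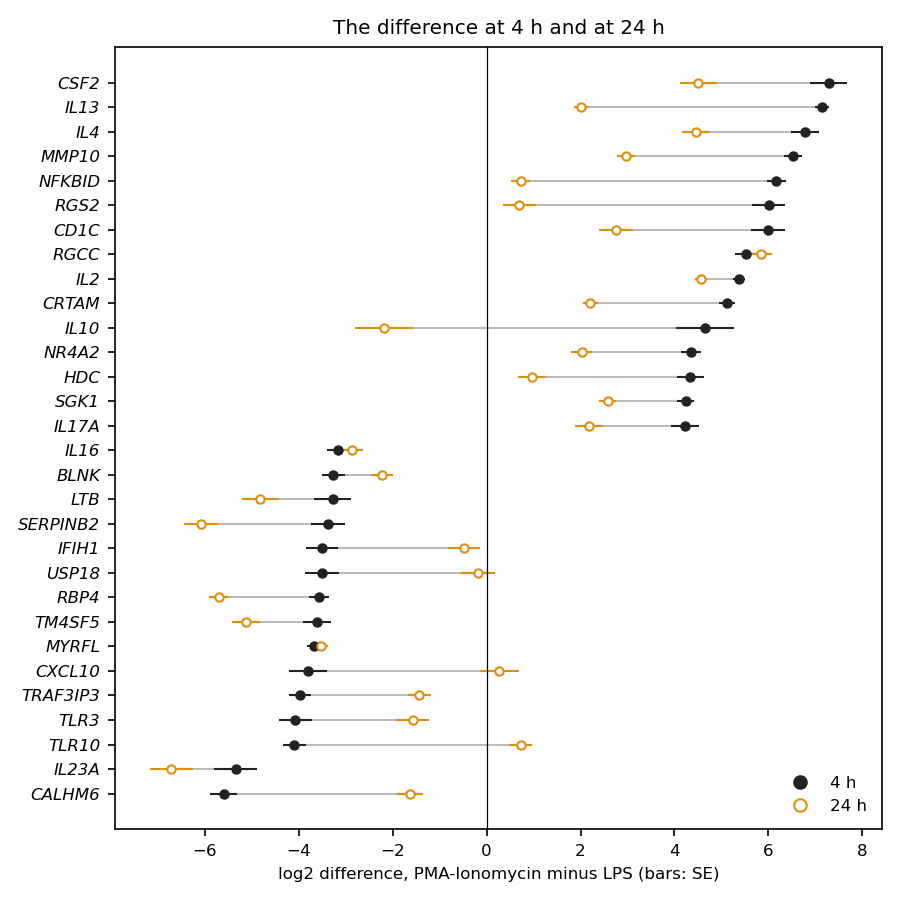
Log2 difference, PMA-Ionomycin minus LPS, at 4 h (filled) and 24 h (open) for the 30 genes with the largest rises and falls at 4 h, with bars of 1 SE from the limma model. Most open symbols lie nearer to 0 than the filled ones; IL10 goes from 4.65 to -2.18, while RGCC stays at 5.52 and 5.85.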

How the data were processed

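PBMC RNA of 4 rabbits was hybridised to 1-colour Agilent arrays, 24 in all. The authors extracted the scans with Agilent Feature Extraction 10.7.3.1, as the submitters' processing notes name it, and the deposited scanner files give an intensity for each spot. A table of log2 values that the authors deposited beside them equals, to within 5e-09, log2 median signals centred on the mean over every spot. Here log2 median signals of non-control spots were centred on the array median, spots marked as outliers were left out, and spots and then probes of a gene were averaged. Genes were named by accession, gene number or the names in the files: 42089 probes gave 28887 genes, 9583 with a symbol, and 20869 probes had no name. Names came from RefSeq (mOryCun1.1). Promoter sequences were not analysed here.

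Groups came from the sample titles. A model with 6 group means and the rabbit as a fixed block was fitted to all 24 arrays with limma 3.58.1 in R 4.3.3, moderated, with Benjamini-Hochberg adjustment over 28773 genes without a missing value. The numbers in the titles mark the same rabbits in every group. Deviations from the group means correlated with a median of 0.228 over 60 pairs of arrays of the same rabbit and of -0.0744 over 180 pairs of different rabbits. Between PMA-Ionomycin and LPS at T4 the correlation was 0.437, 0.376, -0.0689 and 0.461 in rabbits 1, 2, 4 and 5. The number of arrays limits the precision. On simulated data for PMA-Ionomycin against LPS at T4 over 28773 genes, 38.0%, 78.0%, 94.0% and 100% of genes changed by 0.5, 1, 2 and 4 on the log2 scale were recovered. Only 50 genes were changed at each size, far fewer than the 8583 that passed in the data. The adjusted p is stricter with so few changes, so these shares do not measure recovery in the real comparison.

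Gene lists, cell type markers and the genes named were chosen with earlier results of these data known. By the rule for naming, the text takes 15 genes from each end of the differences (called, with a symbol, of 1 direction in 4 of 4 rabbits, and bright on each array of the higher side), the leading members of each list by the same conditions, uncalled members with high levels, and a set of cytokines and receptors. Of that set CD69, PRKCQ and CIITA were not found by symbol. Members named because they alone ran against their list, cell type markers given by name, HLA-DOA, TKT, and IL10, IL6ST, BCL2A1, NCAPG, PSMB9, IL1B and S100A8 at T24 were chosen after their values were seen. One probe well above background was enough to count its gene so. Alternatives were another scaling, background correction, filter, variance model, block, sample set and probe summary.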

Additional observations from a re-analysis of the deposited data

Results flagged for a closer look

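Chance alone marks about 1 in 20 groups of 4 by the test for a distant sample used here (Dixon's ratio), and 202 groups of levels and 6 of array measures were looked at. On the LPS arrays, rabbit 4 lay apart from the other 3 rabbits for NFKBID at 0.327, CD1C at -0.616, STAT5A at 0.720, ITPR1 at 0.605 and SAA3 at 5.92, and rabbit 5 lay apart for NR4A2 at 0.114, TLR4 at 2.47 and RASGRP2 at 4.87. On the PMA-Ionomycin arrays, rabbit 4 lay apart for IL6ST at 4.76, IRF4 at 4.68 and NFKBIB at 3.65, rabbit 5 for CSF3 at -0.507 and PTGS2 at 8.07, and rabbit 2 for PSMB9 at 6.14. The PMA-Ionomycin array of rabbit 2 also had a lower share of spots well above background, 52.6% against 59.0% to 60.0%, and that of rabbit 1 a lower median background of 29 against 33 on the others. The latter was the only PMA-Ionomycin array of T4 on slide 3. The arrays of that slide had a median background of 28 to 30, and those of the other slides 32 to 35. What sets these arrays apart was not tested.

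The difference between PMA-Ionomycin and LPS was not the same at T24 as at T4 for several leading genes, by the interaction of the limma model over all genes. Among the 5 largest rises the interaction was -2.77 for CSF2 (adjusted p = 0.00038), -5.14 for IL13 (adjusted p = 2.63e-12), -2.33 for IL4 (adjusted p = 0.00017), -3.55 for MMP10 (adjusted p = 3.74e-09) and -5.44 for NFKBID (adjusted p = 3.10e-11). Among the 5 largest falls it moved up by 3.97 for CALHM6 (adjusted p = 1.21e-07), 4.82 for TLR10 (adjusted p = 1.03e-09), 2.49 for TLR3 (adjusted p = 0.00035) and 2.55 for TRAF3IP3 (adjusted p = 3.76e-06). These genes were chosen for their size at T4.

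For other genes the sign of the difference changed. The interaction was -6.83 for IL10, -4.86 for IL6ST (from 2.74 to -2.11) and -4.54 for BCL2A1 (from 2.82 to -1.72). It moved up by 5.37 for NCAPG, from -1.44 to 3.93, and by 3.60 for PSMB9, from -1.48 to 2.12. IL1B and S100A8, which did not pass the test at T4, had interactions of -7.10 and -8.56 and differences of -7.56 and -9.92 at T24.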

How the results depend on the processing

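Of 101 genes named by the rule, which leave out IFNG and also LTA, BCL3, RCAN3 and HLA-DOA, whose calls were lost under alternatives given with their lists, 95 passed the test at T4, and 92 of these kept their direction and passed under every alternative tried. The exceptions were TNF, IL12A and TAP1. All 30 genes with the largest differences kept their call. Most of the named genes were chosen for a call and a large difference, which largely fixes these counts. Against 3007 genes higher after LPS, quantile normalization gave 4897, processed signals 6614, normexp with quantile normalization 4785 and the authors' deposited values 4550. Requiring a 2-fold change left 3311 genes at T4, 2476 higher after PMA-Ionomycin and 835 after LPS, and 6323 for the interaction in place of 10353. Single probes, 41903 in number, gave 8462 higher after PMA-Ionomycin in place of 5576, the cause being the larger number of features. Without the rabbit as a block, the pairing removed, 7703 genes passed (5096 and 2607 by direction), and the interaction gave 9351. With each rabbit left out in turn 6736 to 7629 genes passed, 4464 to 5302 higher after PMA-Ionomycin and 2272 to 2541 after LPS, the fewest without rabbit 4, and 8560 to 9387 for the interaction. With slide as a further block 9187 passed. An alternative added after the data were seen, without the LPS array of rabbit 4 and the PMA-Ionomycin array of rabbit 2, gave 7747. The difference in IL6 was -0.46 to 0.070 with each rabbit left out in turn (0.060 without rabbit 4), 0.35 without these 2 arrays, and passed in none. Signal near background limits IL13, IL2, CRTAM, IL17A, SPRY1, BCL2L1, CCL20, EBF1 and the second IFNG probe to bounds. On the dimmer side MMP10, CSF1 and IL18R1 were well above background on 1 of 4 arrays, CSF3 on 2, and CD1C, IL10, BYSL, TNFRSF12A, CXCL10, CXCL11, TLR3 and TLR10 on 3.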
